A study of Mus musculus with 12 samples.

Results

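Xaf1, Daxx, Eif2ak2 and Zbp1 are 4 interferon-inducible mouse genes whose proteins are tied to apoptosis, arrest of translation or necroptosis. Every probe set annotated to exactly 1 of these genes was taken, which gave 8 of the 45037 non-control probe sets. The 4 genes are among 18193 with a probe set of their own on the array. Xaf1 and Zbp1 had 2 probe sets each, Eif2ak2 had 3 and Daxx had 1. All 8 had a signal above the array's median on all 12 arrays, and all 8 were tested.

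The RNA came from mouse embryonic fibroblasts, cultured cells from mouse embryos, hybridized to Affymetrix arrays in 6 groups of 2 arrays that the labels call biological replicates. The groups were DMSO, the solvent control without interferon; IFNa and IFNg, which received interferon alpha or interferon gamma for 6 h; AMN107, which received AMN107 and no interferon; and AMN107-IFNa and AMN107-IFNg, which received AMN107 before 6 h of the named interferon. AMN107 is the code name of nilotinib, an inhibitor of the ABL kinases. One protocol field of the labels writes AMN107 RNA where the design text writes AMN107, so that a compound was given rests on the name. Its dose and duration, and the embryos or cultures behind each replicate, are not given in the sources used here, so p-values measure the spread between these samples.

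Interferon alpha acts through a receptor whose signal reaches a complex with STAT2 and IRF9, which binds interferon-stimulated response elements. Interferon gamma acts through another receptor, whose signal reaches genes with gamma-activated sites. Xaf1 binds XIAP, an inhibitor of caspases, and counteracts it. Daxx is a histone H3.3 chaperone of PML nuclear bodies that was first described as a partner of the death receptor Fas. Eif2ak2 encodes PKR, a kinase that senses double-stranded RNA and phosphorylates eIF2 alpha, which stops most translation. Zbp1 senses Z-form nucleic acid and signals through RIPK3 and MLKL to necroptosis.

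Promoter windows are shown for the members that RefSeq's table holds, since the 4 genes are described as interferon targets and their signals are compared across interferons. The table (build GRCm38.p6) matched 3 of the 4 genes, and Zbp1 was not matched. Each sequence runs 5′ to 3′ on the gene's strand, from 250 bases before the start site to 30 bases after it. Capitals mark matches to GAAANNGAA (the interferon-stimulated response element core), TTCNNNGAA (the gamma-activated site) or GAAANGAAA, searched on both strands of the 300 bases from 250 before to 50 after the start. The last of these was chosen after the sequences were seen.
Xaf1 promoter, chr11:72301379-72301658, plus strand: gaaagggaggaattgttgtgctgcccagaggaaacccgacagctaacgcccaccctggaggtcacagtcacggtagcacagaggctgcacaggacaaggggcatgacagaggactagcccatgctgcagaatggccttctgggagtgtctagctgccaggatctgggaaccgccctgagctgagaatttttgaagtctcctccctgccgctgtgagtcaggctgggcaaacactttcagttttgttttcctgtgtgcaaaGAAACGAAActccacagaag
Eif2ak2 promoter, chr17:78882543-78882822, minus strand: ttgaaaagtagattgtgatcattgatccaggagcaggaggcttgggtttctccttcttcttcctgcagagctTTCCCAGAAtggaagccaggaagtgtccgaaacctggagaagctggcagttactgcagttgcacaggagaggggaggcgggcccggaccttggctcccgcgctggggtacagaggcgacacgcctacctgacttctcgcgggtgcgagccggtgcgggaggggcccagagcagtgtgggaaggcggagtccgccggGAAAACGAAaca
Daxx promoter, chr17:33909195-33909474, plus strand, the first of 3 listed start sites: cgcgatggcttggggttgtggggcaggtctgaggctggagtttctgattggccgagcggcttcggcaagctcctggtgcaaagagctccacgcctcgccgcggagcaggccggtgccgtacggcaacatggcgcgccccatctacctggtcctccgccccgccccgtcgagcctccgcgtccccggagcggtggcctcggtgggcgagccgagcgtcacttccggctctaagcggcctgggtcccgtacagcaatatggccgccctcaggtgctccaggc
The Eif2ak2 window held TTCCCAGAA from position -178 to -170 and GAAAACGAA from position 19 to 27, counted from 1 at the start site. An overlapping match, GAAACAGAA, ran from 25 to 33, past the printed end. The Xaf1 window held no match to GAAANNGAA or TTCNNNGAA, and it held GAAACGAAA from position 11 to 19. None of the 3 letter patterns was found in any of the 3 Daxx windows. Of all 32851 promoters of the same length in the table, 8.56% held GAAANNGAA, 8.3% held TTCNNNGAA and 3.17% held GAAANGAAA. A match is a match of letters and does not show binding.

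IFNa replicate 2 stood apart from the other arrays. The ratio of the 5′ to the 3′ GAPDH control probe sets was 0.0252 on it and 1.074 to 1.161 on the other 11 arrays, and the actin ratio was 0.212 against 0.676 to 0.830. The SD of the log2 difference between the 2 arrays of a group was 0.435 for IFNa and 0.131 to 0.157 for the other groups. All groups share 1 estimate of spread per probe set, so this pair enters the error of every comparison, and results are given with and without IFNa replicate 2 where it matters. Of 12 fibroblast markers, 9 were above the array's median on all arrays, and Thy1 and Lum on none. Their summed signal was 9662 to 11798 on the 6 arrays without AMN107 and 7200 to 7451 on the 6 arrays with it. Vim and S100a4 weighed most in this sum, with median signals of 3916 and 3478, against 563 for Fn1, the next. Of 10 macrophage and leukocyte markers measured, Ptprc, Adgre1, Itgam and Tyrobp were above the median on no array, Csf1r, Cd14 (114 to 172) and Cd3e on all 12, and Cd68 and Fcgr1 on 11, and the list summed to 288 to 370. The endothelial and epithelial lists summed to 73.5 to 95.1 and 99.7 to 164, with Pecam1, Cdh5, Tek, Emcn, Cdh1 and Krt18 above the median on no array, Kdr and Epcam (50.7 to 89.0) on all 12, and Krt8 on 9. No marker was listed at 0. The part of the lower fibroblast marker signal in the AMN107 results was not tested, and fewer cells of a type and less RNA per cell cannot be told apart in these bulk samples.

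Signals below are the authors' MAS5 signals on a linear scale. Log2 differences and folds were computed on signal + 8.66, so they understate changes of dim probe sets. Unless stated, a change was called at a Benjamini-Hochberg adjusted p under 0.05 in limma, adjusted over all 24363 probe sets tested. With 2 arrays a group no exact permutation test can reach that threshold. Signals of different probe sets were not set against each other.

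Xaf1 was low in DMSO and high in all 5 other groups. On its brighter probe set, 1443621_at, the signals were 287 and 286 in DMSO, 1582 and 1881 in IFNa, 1737 and 1737 in IFNg, 1319 and 1550 in AMN107, 2188 and 2168 in AMN107-IFNa, and 2660 and 2736 in AMN107-IFNg. No treated array came near the DMSO arrays, the arrays of the combined treatments did not overlap with any other group, and the IFNa arrays lay on both sides of the IFNg arrays. Xaf1 rose 5.87-fold with IFNa (log2 2.55, SE 0.0967, adjusted p = 9.93e-07, limma) and 5.91-fold with IFNg (log2 2.56, adjusted p = 1.37e-07, limma). The interferons differed by 0.01 on the log2 scale, with a 95% interval of -0.21 to 0.23 (adjusted p = 0.952, limma). The rise with IFNa was 5.39-fold without IFNa replicate 2.

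AMN107 alone raised Xaf1 4.88-fold over DMSO (adjusted p = 1.69e-06, limma). On top of AMN107, IFNg raised it by a further 1.88-fold (adjusted p = 0.000485, limma). IFNa on top of AMN107 gave 1.52-fold, which did not pass (adjusted p = 0.0625, limma) and passed without IFNa replicate 2 at the same fold (adjusted p = 0.000196). The order of the group means was DMSO, AMN107, IFNa, IFNg, AMN107-IFNa and AMN107-IFNg, and only the neighbours IFNa and IFNg overlapped.

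The second Xaf1 probe set, 1443698_at, had signals of 56.3 and 55.5 in DMSO, 306 and 640 in IFNa, 503 and 570 in IFNg, 441 and 516 in AMN107, 684 and 771 in AMN107-IFNa, and 894 and 932 in AMN107-IFNg. IFNa replicate 2 was the higher of its pair by 1.05 on the log2 scale, the largest difference between replicates among the members. Xaf1 rose on this probe set 7.0-fold with IFNa, 8.43-fold with IFNg and 7.53-fold with AMN107 (adjusted p = 0.000263, 5.86e-05 and 5.34e-05, limma). The IFNa rise was 4.87-fold without IFNa replicate 2.

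Eif2ak2 rose in each of the 3 single treatments on 1422005_at and 1440866_at, and on 1422006_at with IFNg and AMN107. Its IFNa call on 1422006_at was lost in 14 of 22 alternatives. Probe sets 1422005_at and 1422006_at carry consecutive numbers. Whether they share a source sequence was not checked, so they may not be independent. On 1422005_at the signals were 64.4 and 94.0 in DMSO, 205 and 403 in IFNa, 432 and 312 in IFNg, 319 and 342 in AMN107, 445 and 460 in AMN107-IFNa, and 606 and 575 in AMN107-IFNg. The DMSO arrays were the lowest and the AMN107-IFNg arrays the highest, while IFNa, IFNg and AMN107 overlapped. The rise was 3.42-fold with IFNa, 4.34-fold with IFNg and 3.91-fold with AMN107 (adjusted p = 0.00947, 0.00107 and 0.000706, limma). Without DMSO replicate 1 the IFNa difference was 1.53 on the log2 scale and did not pass.

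On 1440866_at Eif2ak2 had signals of 35.2 and 35.7 in DMSO, 103 and 154 in IFNa, 123 and 114 in IFNg, 124 and 148 in AMN107, 193 and 220 in AMN107-IFNa, and 251 and 263 in AMN107-IFNg. The IFNa arrays spanned those of IFNg and AMN107, and the 3 single treatments stood at 2.88-fold to 3.27-fold over DMSO. On 1422006_at the groups did not overlap at all. Its signals were 54.9 and 44.0 in DMSO, 110 and 69.0 in IFNa, 143 and 158 in IFNg, 232 and 245 in AMN107, 371 and 347 in AMN107-IFNa, and 408 and 415 in AMN107-IFNg. Here IFNa replicate 2 was the lower of its pair, and on 1422005_at and 1440866_at it was the higher. The rise with IFNa was 1.66-fold on 1422006_at (adjusted p = 0.0364, limma) with all arrays, 2.05-fold without IFNa replicate 2 and 1.34-fold without IFNa replicate 1. Its call was lost when any 1 array of the other groups was left out and under 4 other settings, at log2 differences of 0.58 to 0.87. With AMN107 alone it was 4.27-fold (adjusted p = 4.01e-05, limma).

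Zbp1 separated the interferons. On 1429947_a_at the signals were 26.3 and 31.2 in DMSO, 181 and 105 in IFNa, 416 and 386 in IFNg, 61.1 and 73.7 in AMN107, 138 and 146 in AMN107-IFNa, and 425 and 392 in AMN107-IFNg. Both groups with IFNg lay above every other array, both groups with IFNa lay in the middle and overlapped, and AMN107 alone lay between DMSO and these. Zbp1 rose 10.98-fold with IFNg (log2 3.46, SE 0.199, adjusted p = 3.91e-06, limma), 3.93-fold with IFNa (adjusted p = 0.000549, limma) and 2.03-fold with AMN107 (adjusted p = 0.00422, limma). IFNg exceeded IFNa 2.79-fold without AMN107 (adjusted p = 0.00302, limma) and 2.77-fold with it (adjusted p = 0.00527, limma). When IFNa replicate 2 was left out, Zbp1 rose 5.08-fold with IFNa and IFNg exceeded IFNa 2.16-fold. The call under AMN107 was lost in 4 of 24 alternatives. These were the refits without any 1 of the AMN107-IFNa or AMN107-IFNg arrays, at log2 differences of 1.41 to 1.53.

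The other Zbp1 probe set, 1419604_at, had signals of 45.4 and 45.6 in DMSO, 54.0 and 39.7 in IFNa, 139 and 118 in IFNg, 30.6 and 33.2 in AMN107, 46.5 and 49.4 in AMN107-IFNa, and 105 and 95.6 in AMN107-IFNg. It shared with the first probe set the high signal in both IFNg groups. Zbp1 rose 2.53-fold on it with IFNg (adjusted p = 0.00014, limma). The probe sets disagreed on the other treatments: with IFNa this one gave a log2 difference of 0.02 (adjusted p = 0.897, limma), and with AMN107 it fell by 0.42 on the log2 scale (adjusted p = 0.0299, limma). The AMN107 call was lost in 4 of 23 alternatives, those without 1 of the DMSO or AMN107 arrays, at log2 differences of -0.46 to -0.37. The direction of Zbp1 with AMN107 alone is therefore uncertain in these data.

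Daxx was the only one of the 4 genes whose response to interferon alone did not pass the test with either interferon. Its signals on 1419026_at were 219 and 248 in DMSO, 279 and 271 in IFNa, 303 and 278 in IFNg, 321 and 343 in AMN107, 580 and 491 in AMN107-IFNa, and 843 and 772 in AMN107-IFNg. Every treated array was above both DMSO arrays, the 2 single interferons overlapped, and both combined groups were above all others. The difference from DMSO was 1.18-fold with IFNa (adjusted p = 0.148, limma) and 1.24-fold with IFNg (adjusted p = 0.114, limma). The IFNg difference passed without IFNa replicate 2 (adjusted p = 0.0194, limma).

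Daxx rose 1.41-fold with AMN107 alone (adjusted p = 0.00826, limma). That call was lost in 3 of 24 alternatives. They were the refits without DMSO replicate 1 (log2 0.41) and without AMN107 replicate 2 (log2 0.45), and quantile normalization (log2 0.31, 1.24-fold). In AMN107-treated cells IFNg raised Daxx 2.40-fold (log2 1.26, SE 0.111, adjusted p = 0.000142, limma), and IFNa gave 1.59-fold (adjusted p = 0.0654, limma; 0.00142 without IFNa replicate 2). The rise of Daxx with AMN107 was 1.91-fold among IFNa-treated cells and 2.73-fold among IFNg-treated cells (adjusted p = 0.000479 and 5.05e-05, limma).

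**Figure D1:**
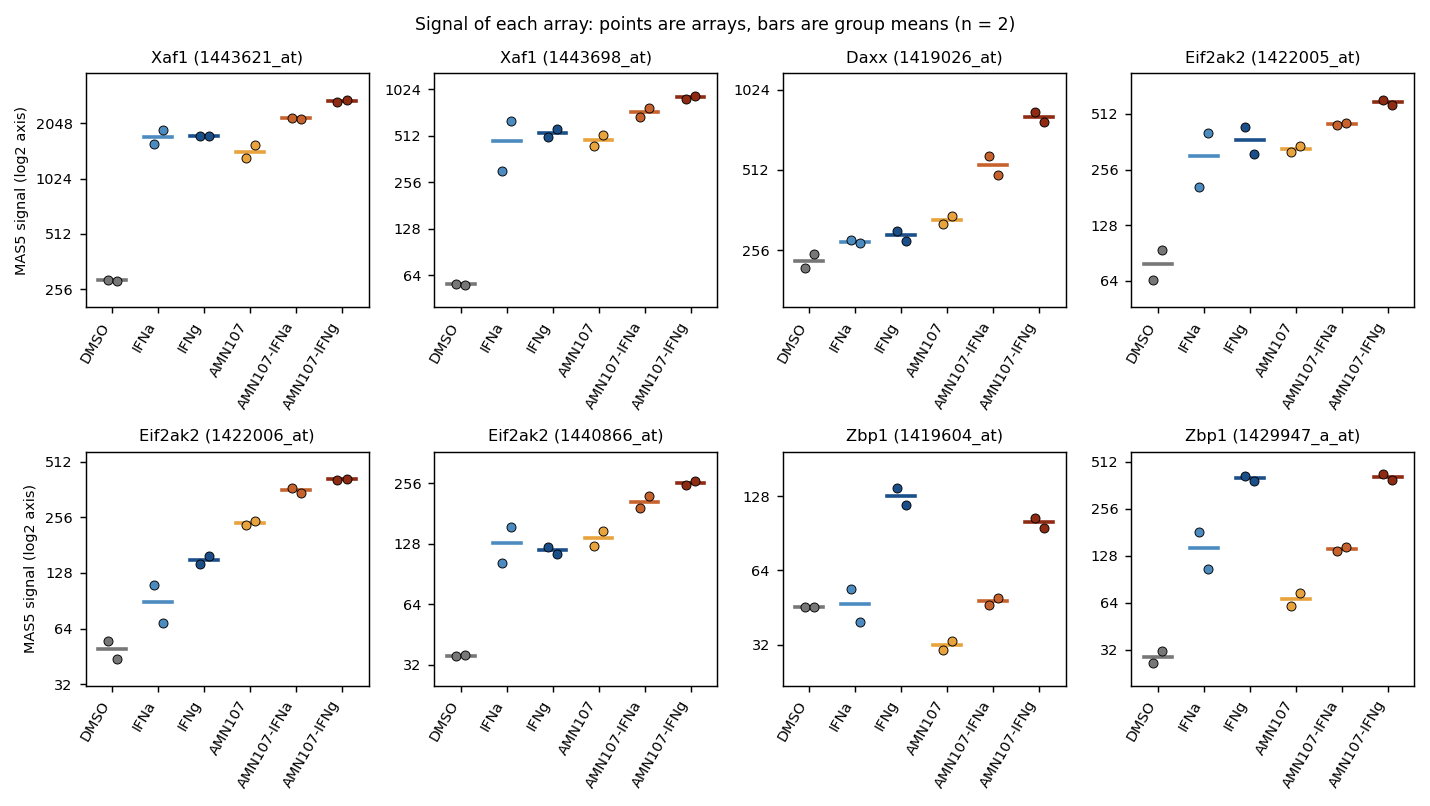
MAS5 signal (log2 axis) of each array for the 8 probe sets of Xaf1, Daxx, Eif2ak2 and Zbp1 in the 6 treatment groups. Points are arrays and bars are group means of 2 arrays. Xaf1 and Eif2ak2 are lowest in DMSO and highest in AMN107-IFNg, Daxx is highest in the 2 combined groups, and Zbp1 is highest in the IFNg groups.

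Counted over the probe sets, 6 of 8 rose with IFNa and 7 of 8 with IFNg, and none fell. Over all probe sets tested, 12% were called with IFNa and 8.98% with IFNg. The members' median log2 difference was 1.69 with IFNa and 1.82 with IFNg, against 0.05 and -0.02 over all probe sets tested. These comparisons, and that of AMN107 with DMSO, share the DMSO arrays.

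In AMN107-treated cells the log2 difference on adding interferon was smaller than in cells without AMN107 for 6 of 8 probe sets with IFNa and for the same 6 with IFNg. The exceptions were Daxx and Zbp1 on 1419604_at. None of the 8 passed with IFNa by limma at a background of 0.119%, although 7 had an unadjusted p under 0.05. Without IFNa replicate 2, 7 of 8 rose, at a background of 0.739%; the exception was Eif2ak2 on 1422005_at (log2 0.44, adjusted p = 0.489). With IFNg 5 of 8 rose at a background of 1.78%, and without IFNa replicate 2 all 8 rose, at 4.85%. The log2 differences of the 8 probe sets did not move in these refits, since IFNa arrays enter only through the shared spread. Leaving out IFNa replicate 1 in place of replicate 2 gave the same counts, 7 and 8, at backgrounds of 0.747% and 4.82%. The members' median was 0.58 with IFNa and 0.92 with IFNg.

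**Figure D2:**
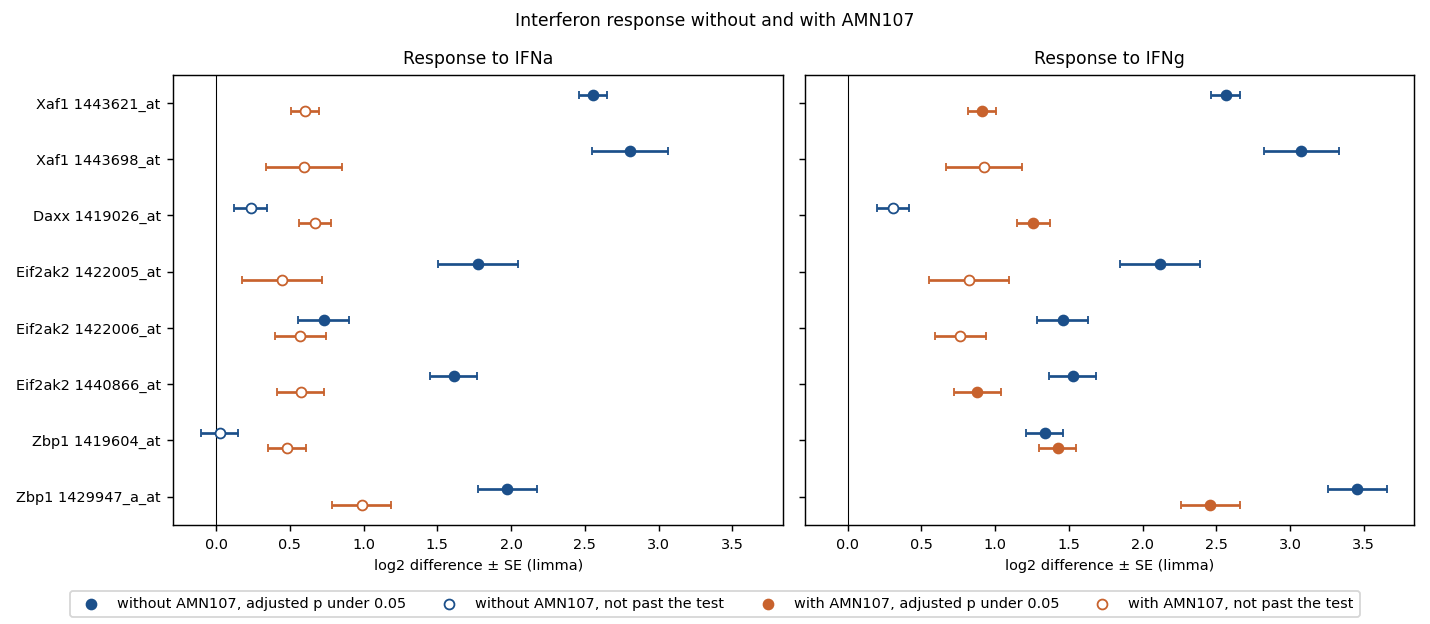
Log2 difference ± SE (limma) of each probe set on adding IFNa (left) or IFNg (right), without AMN107 (blue, against DMSO) and with it (orange, against AMN107). Filled points passed the test. The Xaf1 responses are near 2.55 without AMN107 and 0.60 to 0.91 with it on 1443621_at, whereas the Daxx response to IFNg is larger with AMN107 (1.26) than without (0.31).

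The difference between the responses with and without AMN107 was tested directly as an interaction. For IFNa, 1 of 8 was called and it was lower, at a background of 0.152%. This was Xaf1 on 1443621_at, whose response to IFNa was smaller in AMN107-treated cells (log2 -1.95, SE 0.137, adjusted p = 0.00065, limma). Without IFNa replicate 2, 4 of 8 were called and all were lower, at a background of 0.439%; they were both Xaf1 probe sets, Eif2ak2 on 1440866_at and Zbp1 on 1429947_a_at. Without IFNa replicate 1, 7 were called, at a background of 43.8% of all probe sets tested. These were not all lower, since Daxx and Zbp1 on 1419604_at were among them. Their interactions with IFNa were positive in every alternative, at log2 values of 0.32 to 0.67 and 0.27 to 0.64. In that refit the IFNa group rests on IFNa replicate 2 alone, the array with the low GAPDH and actin ratios.

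For IFNg, 3 of 8 had a called interaction, at a background of 1.38%. The Xaf1 response was smaller with AMN107 on both probe sets (log2 -1.65 and -2.15, adjusted p = 0.000776 and 0.0205, limma). The Daxx response was larger (log2 0.95, SE 0.156, adjusted p = 0.0196, limma), so Xaf1 and Daxx differed in direction. Without IFNa replicate 2, 7 were called, 6 lower and Daxx higher, at a background of 13.1%; without IFNa replicate 1 there were also 7, again at 13.1%. Leaving out any 1 of the 8 arrays of DMSO, IFNg, AMN107 or AMN107-IFNg left 1 call, and the Daxx call was lost in each of those 8 refits, with log2 values of 0.86 to 1.04. Over all probe sets tested, 29 to 3185 had a called IFNg interaction across the 12 refits without 1 array. For Zbp1 the interactions did not pass on either probe set in the fit of all arrays; on 1429947_a_at they were -0.99 with IFNa (adjusted p = 0.182, limma) and -1.0 with IFNg (adjusted p = 0.15, limma).

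AMN107 without interferon changed all 8 probe sets, 7 higher and 1 lower, and 33.1% of all probe sets tested were called in this comparison. The lower one was Zbp1 on 1419604_at. The members' median log2 difference was 1.84, against 0.03 over all probe sets tested.

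Against the interferon alone, AMN107 gave a further rise in 4 of 8 with IFNa and in 4 of 8 with IFNg, at backgrounds of 24.1% and 15.4%. In both comparisons these were Xaf1 on 1443621_at, Daxx, and Eif2ak2 on 1422006_at and 1440866_at. Xaf1 rose 1.26-fold and 1.55-fold (adjusted p = 0.031 and 0.00229, limma), and its IFNa call was lost in 6 of 23 alternatives. It was lost without either AMN107-IFNa array (log2 0.33 without replicate 1) and without either AMN107-IFNg array. Array weights and a fit of only the groups of the contrast also lost it. Eif2ak2 on 1422006_at rose 3.83-fold and 2.64-fold (adjusted p = 0.000113 and 0.000749, limma). Without AMN107-IFNa replicate 2, the IFNa count was 2. Over all probe sets tested, 2416 to 11524 were called in the IFNa comparison across the 12 refits without 1 array.

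Zbp1 on 1429947_a_at did not follow Xaf1, Daxx and Eif2ak2. Adding AMN107 gave a log2 difference of 0.03 with IFNa (95% interval -0.41 to 0.48) and 0.02 with IFNg (95% interval -0.42 to 0.47). The IFNa value without IFNa replicate 2 turned to -0.34 (adjusted p = 0.0415, limma). In those refits 7 of 8 were called with IFNa and 7 of 8 with IFNg, 6 higher and 1 lower in each, at backgrounds of 32.2% and 34.5%. The lower one was Zbp1 in both, on 1429947_a_at with IFNa and on 1419604_at with IFNg.

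**Figure D3:**
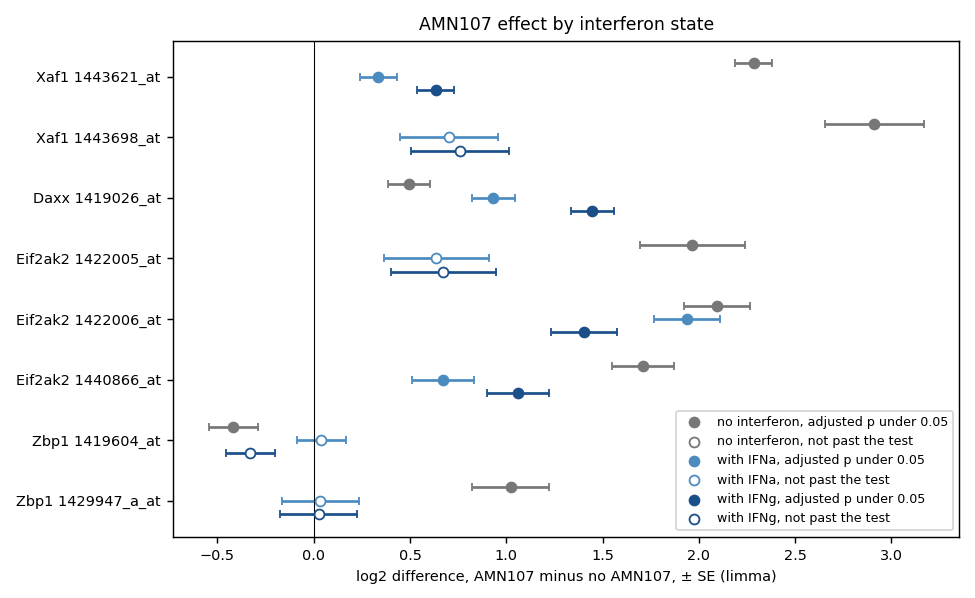
Log2 difference ± SE (limma) of AMN107 against no AMN107 for each probe set, without interferon (grey), with IFNa (light blue) and with IFNg (dark blue). Filled points passed the test. Xaf1 on 1443621_at is at 2.29 without interferon and at 0.34 and 0.63 with it, Daxx is at 0.49, 0.93 and 1.45, and Zbp1 on 1429947_a_at is near 0 with either interferon.

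The interferons were also compared with each other. IFNg was higher than IFNa for 3 of 8, at a background of 14.1%, and these were both Zbp1 probe sets and Eif2ak2 on 1422006_at (1.66-fold, adjusted p = 0.0259, limma). That Eif2ak2 difference was 1.34-fold without IFNa replicate 2 and 2.05-fold without IFNa replicate 1, and its call was lost in 4 of 22 alternatives, among them leaving out either IFNg array. The count was 5 without IFNa replicate 2, at a background of 21.8%. Under AMN107, 3 of 8 were higher with IFNg, at a background of 0.932%, namely both Zbp1 probe sets and Daxx (1.5-fold, adjusted p = 0.0381, limma). Leaving out AMN107-IFNa replicate 1 or 2 gave 0 and 1, and leaving out AMN107-IFNg replicate 1 or 2 gave 0 and 1. Over all probe sets tested, 86 to 576 were called in this comparison across the 12 refits without 1 array. The Daxx call was lost also when any 1 array of DMSO, IFNg or AMN107 was left out, at the same log2 difference of 0.59. On 1443621_at, Xaf1 was at 0.31 between the combined groups (adjusted p = 0.448, limma).

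Across the 12 arrays, Xaf1 on 1443621_at had a Pearson r of log2 values of 0.960 with Eif2ak2 on 1422005_at and 0.792 with Eif2ak2 on 1422006_at, which had 0.870 with Daxx. Xaf1 had an r of 0.675 with Daxx and 0.798 with Zbp1 on 1429947_a_at. Daxx had 0.570 with the same Zbp1 probe set. Zbp1 on 1419604_at had 0.353 with Xaf1 and 0.319 with Daxx. Probe sets of the same gene had 0.987 for Xaf1, 0.837 for Zbp1 and 0.814 to 0.968 for Eif2ak2. These are descriptions over arrays that share the treatments.

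The 5 genes whose pattern over the 12 arrays was most like that of Xaf1 were Parp12, Oasl2, Ifi202b, Parp9 and Mndal (r 0.978 to 0.990). For Eif2ak2 they were Ifi202b, H2-K1, Nufip1, Irf9 and Anxa7 (r 0.975 to 0.981). For Zbp1 they were Tap1, Psmb10, Gbp2b, Samhd1 and Gbp7 (r 0.975 to 0.992), among them a peptide transporter and a proteasome subunit of antigen presentation and 2 guanylate-binding proteins. For Daxx they were Cgas, the cytosolic DNA sensor, and Gm11772, Tut7, Usp42 and Dcp2 (r 0.948 to 0.967). Over the 11 arrays without IFNa replicate 2, 3 of the 5 stayed among the first 5 for Xaf1, 2 for Daxx, 2 for Eif2ak2 and 4 for Zbp1.

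Partner genes were read on 1 probe set each, the one with the highest mean, and over all 12192 genes read this way 12% were called with IFNa, 8.27% with IFNg and 32.9% with AMN107. Of the necroptosis genes around Zbp1, 9 of 10 were tested, and 6 rose with IFNa, 2 with IFNg and 3 with AMN107, with none lower. Mlkl, the pore-forming effector of necroptosis, had signals of 320 and 317 in DMSO, 536 and 780 in IFNa, 833 and 776 in IFNg, 537 and 611 in AMN107, 781 and 756 in AMN107-IFNa, and 1064 and 1040 in AMN107-IFNg. It was lowest in DMSO and highest in AMN107-IFNg, as Xaf1 was. Mlkl rose by 1.0, 1.31 and 0.83 on the log2 scale with IFNa, IFNg and AMN107 (adjusted p = 0.00756, 0.000441 and 0.00266, limma). Tlr3, a sensor of double-stranded RNA, rose by 1.04, 1.39 and 0.50, and its other probe set passed with both interferons and was at 0.17 with AMN107. Ripk3, the kinase that activates Mlkl, rose by 0.48 with IFNa, and Casp8, the protease that restrains necroptosis, was at 0.59 (adjusted p = 0.0711, limma). With IFNa replicate 2 left out, the IFNa count was 4, namely Mlkl, Tlr3, Tradd and Adar, the IFNg count 5 and the AMN107 count 8. In that refit 5.59% of all genes read this way were called with IFNa, 28.7% with IFNg and 53.0% with AMN107.

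Of the genes of translation arrest around Eif2ak2, 10 of 12 were tested. With AMN107, 6 rose and none fell. Among them were Ddit3 and Ppp1r15a, targets of the integrated stress response, whose log2 differences were 1.13 and 1.05 (adjusted p = 0.000877 and 0.000276, limma). Ppp1r15a signals were 199 and 205 in DMSO and 429 and 427 in AMN107, and stayed between 373 and 405 in the combined groups. Atf4, the factor whose translation rises when eIF2 alpha is phosphorylated, was at 0.65 on its brightest probe set, and at -0.03 and 0.01 on 2 others. With the interferons 1 rose with IFNa, the kinase Eif2ak4 (0.61), and 2 with IFNg, Atf4 (0.25) and Dnajc3 (0.67), an inhibitor of PKR. In the fit without IFNa replicate 2, Eif2ak4 did not pass with IFNa and Ddit3 did, and with IFNg 4 were higher and 1 lower, beside 28.7% of all genes.

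Of the caspase and IAP genes around Xaf1, 14 of 18 were tested. With IFNa 1 was higher and 1 lower, with IFNg 2 were higher, and with AMN107 3 were higher and 1 lower. Xiap, the partner of Xaf1, had log2 differences of 0.34, 0.24 and -0.01 (adjusted p = 0.128, 0.361 and 0.956, limma), so its brightest probe set passed in none of the 3. Of 2 other Xiap probe sets tested, 1456088_at rose by 0.88 with AMN107 (adjusted p = 0.0375, limma). Bid, which links death receptors to mitochondria, rose by 0.89 with IFNg and 0.67 with AMN107, while its other probe sets were at 0.00 and 0.03, without passing, and at 1.51 and 1.91, passing. Birc3, an inhibitor of apoptosis, fell by 0.51 with AMN107. With IFNa replicate 2 left out, limma called 0 with IFNa, where 4 had an unadjusted p under 0.05, and with IFNg 5 were higher and 3 lower, beside 5.59% and 28.7% of all genes.

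Of the PML body and death receptor genes around Daxx, 11 of 13 were tested. With IFNa 2 rose, with IFNg 4 rose and 1 fell, and with AMN107 2 rose and 1 fell. Pml, the scaffold of the bodies that hold Daxx, rose by 0.75, 0.41 and 0.76 (adjusted p = 0.00184, 0.0186 and 0.000271, limma). Its signals were 133 and 118 in DMSO, 214 and 221 in IFNa, 171 and 168 in IFNg, 213 and 224 in AMN107, 308 and 301 in AMN107-IFNa, and 333 and 333 in AMN107-IFNg. As for Daxx, both combined groups were above all others. On its other probe set tested, Pml passed with IFNa (0.73) and not with IFNg (0.50) or AMN107 (0.33). Sp100, another component of the bodies, rose by 1.90 with IFNa and 1.44 with IFNg and was at 0.36 with AMN107 (adjusted p = 0.0756, limma), and its other probe set passed with IFNa (1.32) and not with IFNg (0.42). Atrx, which loads histone H3.3 together with Daxx, fell by 0.40 with AMN107 on its brightest probe set, while 2 other probe sets passed in the other direction at 1.35 and 1.29. Without IFNa replicate 2 the AMN107 counts were 5 higher and 3 lower, and with IFNa 2 were higher and 1 lower, beside 53.0% and 5.59% of all genes.

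Of the interferon signalling genes, 11 of 12 were tested, and 4 rose with IFNa, 6 with IFNg and 7 with AMN107, with none lower. Irf9, part of the complex that binds interferon-stimulated response elements, rose by 1.44, 1.32 and 1.49 on the log2 scale. Irf7, which drives interferon genes, rose by 1.4, 1.31 and 1.63. Irf1, a factor induced by interferon gamma, rose by 2.89 with IFNg and had a log2 difference of 0.42 with IFNa. The counts were 3, 8 and 8 without IFNa replicate 2, beside 5.59%, 28.7% and 53.0% of all genes. The medians of the 5 lists lay between 0.12 and 0.44 with IFNa, 0.11 and 0.56 with IFNg, and 0.02 and 0.50 with AMN107, against 0.04, -0.03 and 0.02 over all tested genes.

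**Figure D4:**
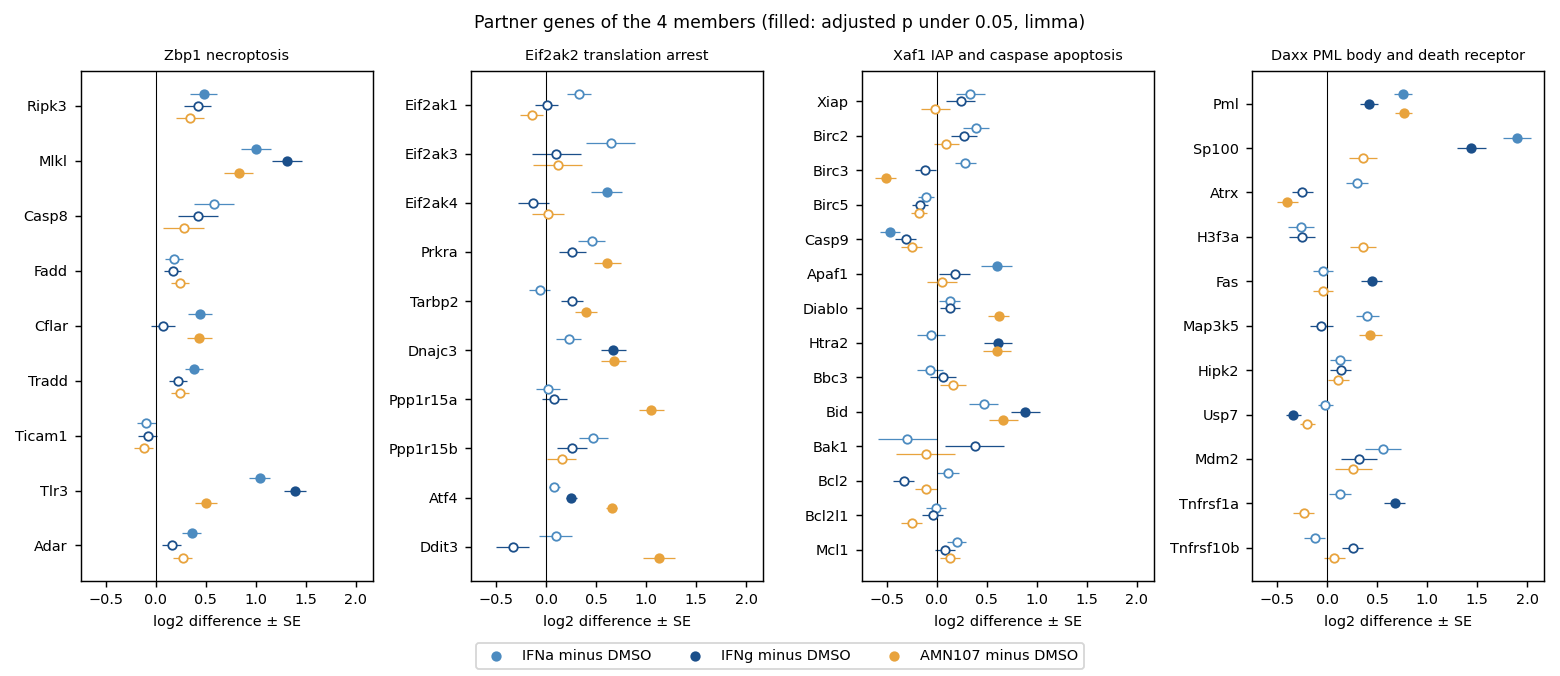
Log2 difference ± SE (limma) from DMSO for the tested partner genes of Zbp1, Eif2ak2, Xaf1 and Daxx, with IFNa (light blue), IFNg (dark blue) and AMN107 (orange); filled points passed the test. Mlkl and Tlr3 are higher in all 3 treatments, Ddit3 and Ppp1r15a with AMN107, and Sp100 with both interferons.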

How the data were processed

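RNA of 12 samples, 2 in each of 6 groups, was hybridized to Affymetrix arrays. The authors deposited linear signal intensities per probe set, made with MAS5 per the submitters' processing notes; the version is not given in the sources used here. MAS5 scales each array and keeps no count of molecules, so the number of arrays limits the precision. Of 45101 probe sets, 64 controls were left out; 34945 named 1 gene, 932 several and 9160 none in the platform annotation, which can be old, and all 4 member gene IDs were found in RefSeq's gene table under the same symbol. The 8 probe sets of Xaf1, Daxx, Eif2ak2 and Zbp1 were all described.

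Intensities were taken to log2(signal + 8.66), the mean 25th percentile of the arrays. The 24363 probe sets that exceeded the median signal of at least 2 arrays were fitted in limma 3.58.1 (R 4.3.3), with 1 mean per group, 6 residual degrees of freedom and trended moderation. Tests were two-sided for 11 contrasts, with Benjamini-Hochberg adjustment over all tested probe sets. A group's fold is a ratio of geometric means of signal + 8.66. The 5 genes most like each member were chosen by Pearson r over the arrays, and partner genes came from fixed lists, some genes of which are not reported here. Members and lists were chosen with earlier results of these data known. The fit was checked on simulated data with known changes. Figures were drawn with matplotlib 3.10.9 in Python 3.11.15. Alternatives changed the pseudocount, filter, normalization, array weights, samples fitted, moderation, replicate block and each array in turn.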

Additional observations from a re-analysis of the deposited data

Results flagged for a closer look

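Responses to interferon that differed between cells with and without AMN107, by limma's test of the difference itself with Benjamini-Hochberg adjustment, were found for Xaf1 and Daxx. For Xaf1 on 1443621_at the response was smaller with AMN107 by a log2 difference of -1.95 for IFNa and -1.65 for IFNg. Neither of these calls was lost in any alternative. For Xaf1 on 1443698_at the difference for IFNg was -2.15, and its call was lost in 8 of 23 alternatives. For Daxx the difference was 0.95 for IFNg, a larger response with AMN107, and its call was lost in 8 of 24 alternatives. In the cells with AMN107 alone the Xaf1 signal was already 4.88-fold above DMSO on 1443621_at. No cause was tested.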

How the results depend on the processing

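Of 2036 checks of a member's log2 difference under an alternative, 1809 kept their direction and their side of the threshold, 81 lost a call and 127 gained one. The sign changed in 19 checks of 10 results. In 18 of these the difference was called neither before nor after (at most 0.25 on the log2 scale after the change), and the other, which ended called, was Zbp1 on 1429947_a_at for AMN107-IFNa against IFNa, at -0.34 without IFNa replicate 2 and 0.40 without IFNa replicate 1. Counts of member probe sets called, of 8 (of 4 with 1 probe set per gene), moved as follows, and where a value does not follow from fewer probe sets or arrays the cause was not tested. With 1 probe set per gene, they were 3 for IFNa, 3 for IFNg and 4 for AMN107 against DMSO, 2 and 3 for IFNa and IFNg against AMN107, 2 and 2 for the combined groups against IFNa and IFNg, and 1 for IFNg against IFNa. With only the groups of the contrast fitted, they were 1 for IFNa against DMSO, 6 and 8 for AMN107-IFNa and AMN107-IFNg against AMN107, 0 and 7 for the combined groups against IFNa and IFNg, 0 for IFNg against IFNa, 6 for AMN107-IFNg against AMN107-IFNa, and 7 for the IFNg interaction. Array weights gave 7 and 8 against AMN107, 2 and 7 against IFNa and IFNg, and 2 and 7 for the IFNa and IFNg interactions. Without both IFNa arrays, the counts were 7 and 8 against AMN107, 7 against IFNg and 7 for the IFNg interaction. For AMN107-IFNa against AMN107, where no member was called, the 75th percentile filter gave 2, quantile normalization 1 and median centring 2. A pseudocount of 1 and no filter each gave 2 for the IFNa interaction. The share called over all probe sets tested is not reported here for these settings. The moved counts are therefore no result about the members themselves.

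Leaving out 1 array at a time gave 4 to 6 for IFNa, 7 to 8 for IFNg and 6 to 8 for AMN107 against DMSO, 0 to 7 and 4 to 8 for IFNa and IFNg against AMN107, 2 to 7 and 4 to 7 for the combined groups against IFNa and IFNg, 2 to 5 for IFNg against IFNa, 0 to 4 for AMN107-IFNg against AMN107-IFNa, and 1 to 7 for each interaction. In the same refits the calls over all 24363 probe sets tested ran from 113 to 13220, 630 to 7010 and 3483 to 12731 against DMSO, 0 to 182 and 203 to 1181 against AMN107, 2416 to 11524 and 1195 to 8413 against IFNa and IFNg, 343 to 11698 and 86 to 576 between the interferons without and with AMN107, and 12 to 10674 and 29 to 3185 for the IFNa and IFNg interactions. Same-numbered arrays of the 15 pairs of groups had deviation correlations of -0.14 to 0.321, with 3 above 0.1 and 4 below -0.1. The labels do not say whether the numbers pair the arrays, and with 2 arrays a group these correlations cannot settle it. With the replicate block the IFNa interaction had 2 calls, and over all contrasts 3 calls were gained and 1 was lost.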
